A study of Mus musculus with 190 samples.

Results

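Blood drawn on day 9 was compared with blood drawn on day 5, at a stage of the study when no mouse in either group had visible skin disease. The comparison takes 20 of the 190 whole-blood RNA libraries of the series. They are the 10 libraries of cohort 3, sampled on day 9, and the 10 of cohort 2, sampled on day 5, chosen by sample title, and all 20 carry a dermatitis score of 0. The study follows the blood transcriptome of NC/Nga mice through the onset of a dermatitis that resembles atopic dermatitis, and its title names a search for a state before disease.

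All mice of both groups were wild-type NC/Nga males under conventional housing, an environment in which this inbred strain is known to develop itching eczema, in contrast to specific-pathogen-free (SPF) housing. Blood, about 0.1 mL, came from the tail vein without anesthesia into EDTA-coated capillaries, and stranded total-RNA libraries were made after depletion of ribosomal and globin RNA. The labels give neither the age of the mice nor the event from which days are counted. Each day is 1 cohort, so day and cohort cannot be told apart. The labels do not say what a replicate number stands for, and p-values measure the spread between these libraries. For context, values are also given for cohort 1 on day 2 (10 libraries, all with score 0), cohort 4 on day 12 (10 libraries, 8 with score 0), 5 SPF controls on day 16, and the second sampling of cohort 2 on day 40 and of cohort 3 on day 44 (10 libraries each, with scores of 0.5 to 4).

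Eosinophils are granulocytes that leave the bone marrow under interleukin 5, enter tissue by chemokine receptor 3 (Ccr3) and accumulate in allergic skin. In mouse blood they are recognised by Ccr3, the lectin Siglecf and the interleukin 5 receptor chain Il5ra, while their granule proteins are transcribed mainly by precursors in the marrow. Neutrophils and monocytes carry most of the other innate transcripts of blood, and blood taken through skin can also hold RNA of connective tissue, fat and vessel wall.

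Total expected counts per library ran from 21706745 to 37741970 on day 5 and from 27121197 to 47564624 on day 9. Globin transcripts took 3.04% to 6.50% of counts on day 5 (median 4.50%) and 0.755% to 3.69% on day 9 (median 2.95%), so that the groups overlapped little. The mitochondrial rRNA genes took 4.16% to 6.44% on day 5 and 3.06% to 10.5% on day 9. The GC content of a transcript, its share of G and C bases, moved with the day as well. With genes put in 5 equal classes by GC share, the median level of the richest class less that of the poorest, as a log2 value relative to the mean of the 20 libraries, was between -0.128 and 0.538 on day 5 (median 0.236) and between -0.567 and 0.104 on day 9 (median -0.273). Genes of cartilage, bone and fat stood far above the rest in day 5 replicate 7 and day 9 replicate 2, and day 9 replicates 4 and 9 had the lowest globin shares. Red cell, B cell and myeloid genes were detected in every library, as whole blood should give, and no pair of libraries was identical.

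Between the groups 3229 of 14153 genes tested were called in edgeR's quasi-likelihood test, at a Benjamini-Hochberg adjusted p under 0.05 (22.8%), 1533 higher on day 9 (10.8%) and 1696 lower (12.0%). Most of these differences were small: 285 of the called genes differed by at least 1 on the log2 scale, 57 of them higher and 228 lower. The calls followed GC content. In the class with the lowest GC share 985 genes were higher and 26 lower, and in the class with the highest share 21 were higher and 883 lower. When the smooth trend over GC was taken out of every library, 937 genes were called (6.62%), 470 higher (3.32%) and 467 lower (3.30%), and 677 of them had been called with the same sign before. With the globin share as a covariate the count was 24, and with globin and mitochondrial rRNA shares together it was 1. With only 10 libraries a day and shares that differ between the days, what belongs to the day and what to these measures cannot be told apart, and the origin of the GC difference was not tested. Each result is therefore given as counted and, where the call differs, with the GC trend removed.

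**Figure D1:**
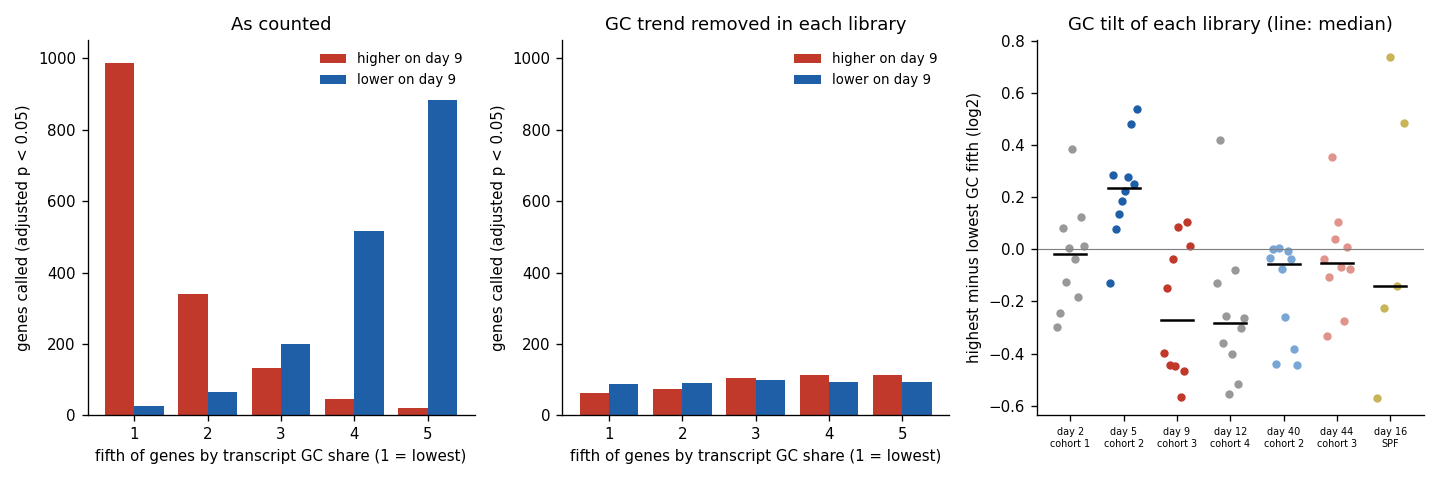
Number of genes called higher or lower on day 9 in each of 5 classes of genes by transcript GC share, as counted (left) and with the GC trend removed (middle), and the GC tilt of each library, highest less lowest class in log2 (right; points are libraries, lines group medians). As counted, the lowest class held 985 higher and 26 lower genes and the highest 21 and 883; after removal the lowest class held 64 and 87.

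Surface and enzyme genes of eosinophils were higher on day 9. Of the 12 genes of the eosinophil list 5 passed the filter on low counts. Of these 4 were called higher and 0 lower (80%, against 22.8% of all genes). The list median was 1.03 on the log2 scale, against -0.02 over all genes tested. Ccr3, the eotaxin receptor (chromosome 9, 123822009 to 123831726, plus strand, GRCm39), was between 1.31 and 3.05 CPM, a count scaled by library size, (median 2.14) on day 5 and between 7.50 and 28.8 CPM (median 13.05) on day 9. Every day 9 library was above every day 5 library, and the difference was 2.77 ± 0.25 (adjusted p = 2.58e-06), a log2 value with its standard error. The mean went from 2.07 ± 0.574 to 14.3 ± 6.59 CPM (SD, n = 10 each). Alox15, the lipoxygenase that eosinophils use to make lipid mediators (chromosome 11, 70234978 to 70242857, minus strand), was between 0.348 and 1.15 CPM (median 0.698) on day 5 and between 1.21 and 3.90 CPM (median 2.34) on day 9. Its groups did not overlap either, and it rose by 1.82 ± 0.24 (adjusted p = 4.29e-05). Siglecf, the inhibitory lectin used to identify these cells (chromosome 7, 43000765 to 43008955, plus strand), was between 0.348 and 1.41 CPM (median 0.656) on day 5 and between 0.667 and 2.32 CPM (median 1.47) on day 9. Of the day 9 libraries 6 of 10 were above the highest of day 5, and the rise was 1.03 ± 0.25 (adjusted p = 0.00579). All 3 genes were also called with the GC trend removed, at 2.52, 1.96 and 1.10. With the globin share as a covariate Ccr3 stayed called, at 3.08 (adjusted p = 0.000171), while Siglecf was at 1.14 (adjusted p = 0.134) and Alox15 at 1.51 (adjusted p = 0.0603).

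The interleukin 5 receptor chain Il5ra rose by a smaller amount. It was between 3.27 and 5.23 CPM (median 4.35) on day 5 and between 4.05 and 8.72 CPM (median 5.56) on day 9, with 7 of 10 day 9 libraries above the highest of day 5, and rose by 0.41 ± 0.12 (adjusted p = 0.0178). With the GC trend removed it was no longer called, at 0.26 (adjusted p = 0.177). Ear2, an RNase of the eosinophil family that is transcribed in other myeloid cells too, was between 7.64 and 15.4 CPM (median 10.4) on day 5 and between 6.37 and 21.03 CPM (median 13.5) on day 9 and was not called, at 0.35 (adjusted p = 0.212). Transcripts of the granule proteins stayed near the limit of detection: Prg2, the major basic protein, averaged 0.0474 CPM on day 5 and 0.261 CPM on day 9, and Epx, the eosinophil peroxidase, had 4 reads in all 20 libraries together; neither passed the filter. Ear6, another of the untested genes, averaged 0.0329 CPM on day 5 and 0.599 CPM on day 9, and Ear10 0.0221 and 0.376 CPM. In bulk blood more cells of a type and more RNA per cell cannot be told apart.

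Several of the other largest rises also had every day 9 library above every day 5 library. P2ry14, a receptor for UDP-glucose (chromosome 3, 59021276 to 59061039, minus strand), was between 0.382 and 1.14 CPM (median 0.667) on day 5 and between 2.10 and 4.86 CPM (median 3.11) on day 9, without overlap. It rose by 2.28 ± 0.20 (adjusted p = 4.56e-08) and was the 1 gene called with the globin and mitochondrial rRNA shares together as covariates, at 2.26 (adjusted p = 0.00558). Tmem229a, a transmembrane protein gene at low level, rose from a median of 0.129 to 1.07 CPM, without overlap, at 3.21 ± 0.37 (adjusted p = 5.62e-06). Adora3, the adenosine A3 receptor, which was singled out after its values were seen, was between 0 and 0.274 CPM (median 0.118) on day 5 and between 0.372 and 1.37 CPM (median 0.597) on day 9. Its groups did not overlap, and it rose by 2.39 ± 0.40 (adjusted p = 0.000384). Abcc2, an export pump for organic anions, was between 0.0509 and 0.465 CPM (median 0.234) on day 5. It was between 0.509 and 1.55 CPM (median 1.19) on day 9, again without overlap, and rose by 2.24 ± 0.31 (adjusted p = 6.67e-05). Tmem229a, Adora3 and Abcc2 were too low on day 5 to pass the filter on low counts with those libraries alone. They passed it through their day 9 libraries, so their lack of overlap depends in part on the filter.

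Gapt, which encodes an adaptor protein that binds Grb2, rose by 1.26 ± 0.18 (adjusted p = 8.18e-05), Reps2, an endocytosis factor, by 1.49 ± 0.19 (adjusted p = 4.19e-05), and the adhesion receptor gene Adgrg6 by 1.13 ± 0.29 (adjusted p = 0.00766), each with some overlap. The long noncoding RNA gene Panct2 rose by 1.33 ± 0.28 (adjusted p = 0.00232). The small nucleolar RNA gene Snora73b rose by 1.32 ± 0.39 (adjusted p = 0.0221), although near-identical copies of it can share reads. All 5 were also called with the GC trend removed. Over all genes tested, 48 (0.339%) had all 10 libraries of 1 day above all 10 of the other, 33 of them higher on day 9 and 15 lower.

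The neighbouring groups show the course over days. Median Ccr3 was 2.16 CPM (day 2), 2.14 (day 5), 13.05 (day 9) and 18.4 (day 12). It was 8.08 CPM in cohort 2 on day 40, 8.55 CPM in cohort 3 on day 44 and 2.33 CPM in the SPF controls. SPF replicate 1 was at 9.05 CPM, within the day 9 range, and the other controls between 1.46 and 2.84 CPM. Median P2ry14 was 0.974 CPM (day 2), 0.667 (day 5), 3.11 (day 9) and 5.61 (day 12). For Siglecf the medians were 0.387 CPM (day 2), 0.656 (day 5), 1.47 (day 9) and 1.93 (day 12). The Il5ra median was 4.92 CPM (day 2), 4.35 (day 5), 5.56 (day 9) and 5.31 (day 12), and it was lower at the second sampling, at 2.28 and 2.49 CPM.

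**Figure D2:**
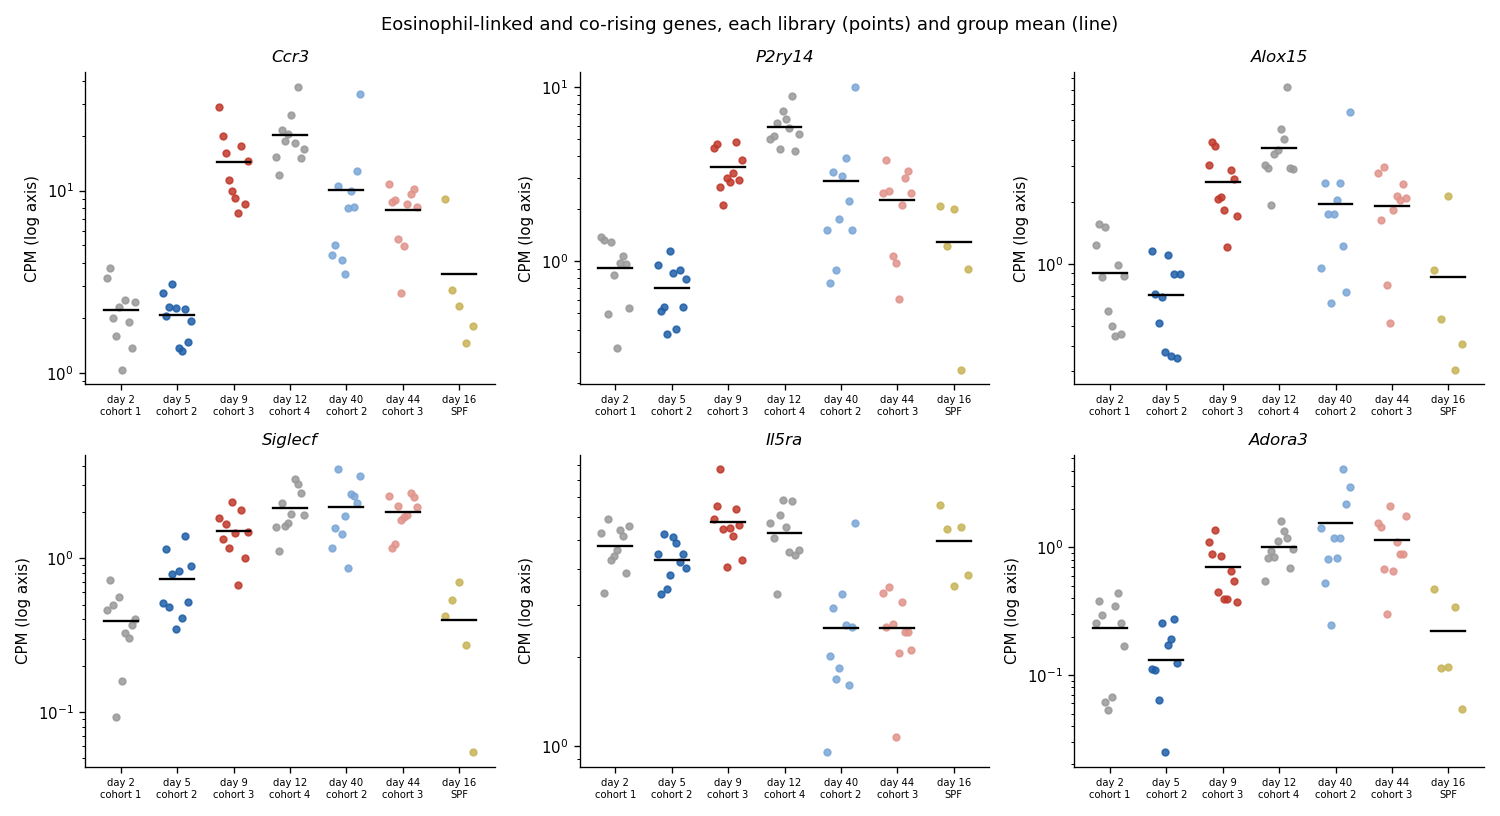
CPM (log axis) of 6 genes in the libraries of 7 groups, with points for libraries and lines for group means. Day 5 replicate 10, at 0 CPM of Adora3, cannot be drawn on the log axis for that gene. Ccr3, P2ry14, Alox15 and Adora3 of the 10 day 9 libraries lie above all day 5 libraries, while Siglecf and Il5ra overlap between the days.

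Several chaperone genes were higher on day 9 by small amounts. Of 7 heat shock genes tested 5 were called higher and 0 lower (71.4%, against 22.8% of all genes). With the GC trend removed 5 were called higher (71.4%, against 6.62%). The list medians were 0.33 and 0.30. Hsph1, a nucleotide exchange factor of the Hsp70 machine (chromosome 5, 149537752 to 149559841, minus strand), was between 13.6 and 18.6 CPM (median 14.97) on day 5 and between 22.8 and 38.4 CPM (median 27.5) on day 9. The groups were apart, and the rise was 0.82 ± 0.09 (adjusted p = 2.58e-06). Dnaja1, a co-chaperone of Hsp70, was between 33.4 and 49.3 CPM (median 42.1) on day 5 and between 53.2 and 91.2 CPM (median 67.3) on day 9, without overlap, and rose by 0.73 ± 0.09 (adjusted p = 1.58e-05). Chordc1, a partner of Hsp90, was between 23.3 and 32.3 CPM (median 27.2) on day 5 and between 32.97 and 61.04 CPM (median 41.3) on day 9, also without overlap, and rose by 0.67 ± 0.09 (adjusted p = 6.76e-05), or by 0.31 (adjusted p = 0.0205) with the GC trend removed.

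Smaller rises were called for Hsp90aa1, the inducible Hsp90, at 0.50 ± 0.09 (adjusted p = 0.000561), for the mitochondrial chaperonin pair Hspd1, at 0.33 ± 0.07 (adjusted p = 0.00357), and Hspe1, at 0.33 ± 0.10 (adjusted p = 0.0174), for the constitutive Hsp70 gene Hspa8, at 0.23 ± 0.06 (adjusted p = 0.00809), and for Cacybp at 0.53 ± 0.10 (adjusted p = 0.0014), or 0.31 (adjusted p = 0.0227) with the GC trend removed. The groups overlapped for each of these, with 4 of 10 day 9 libraries above the highest of day 5 for Hspe1. Hspe1 was at 0.27 (adjusted p = 0.0661) with the GC trend removed and was then not called. The strongly inducible genes did not pass the test as counted: Hspa1b was at 0.02 (adjusted p = 0.978), and Dnajb1 at 0.14 (adjusted p = 0.301), or 0.30 (adjusted p = 0.0464) with the GC trend removed. Cirbp, a cold-inducible RNA-binding protein, was singled out after its values were seen. It was between 11.3 and 16.97 CPM (median 13.3) on day 5 and between 6.66 and 10.96 CPM (median 8.81) on day 9, with every day 9 library below every day 5 library, and it fell with a difference of -0.68 ± 0.09 (adjusted p = 4.8e-05).

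Heat shock factor binds arrays of the unit GAA in alternating orientation. The promoter windows of these genes, 250 bases before to 50 after the start, were searched on both strands for 3 units in a row (GAA, any 2 bases, TTC, any 2 bases, GAA, or the reverse complement), in RefSeq sequence of build GRCm38.p6. Of 13 genes searched (the 8 of the list, Dnaja1, Chordc1, Cacybp, Ccdc117 and Cirbp) 10 had a window, and 4 of these had a match in at least 1 window. Dnaja1, Dnajb1, Hspa1a, Hspa1b, Cacybp and Cirbp had windows but no match. Over all 32851 windows 0.603% had a match. Some genes had more than 1 window, so the count of genes and this share of windows are unlike measures. A window is shown for each of 3 genes with a match, with matched bases in capitals and overlapping matches merged. The fourth gene, Hspd1, is transcribed away from Hspe1 on the other strand, so the same bases may be counted for both. A match describes the sequence only. The Hsph1 window is chr5:149636266-149636565 on the minus strand, that of Chordc1 chr9:18292017-18292316 on the plus strand and that of Hspe1 chr1:55087898-55088197 on the plus strand, all in GRCm38.p6.
Hsph1: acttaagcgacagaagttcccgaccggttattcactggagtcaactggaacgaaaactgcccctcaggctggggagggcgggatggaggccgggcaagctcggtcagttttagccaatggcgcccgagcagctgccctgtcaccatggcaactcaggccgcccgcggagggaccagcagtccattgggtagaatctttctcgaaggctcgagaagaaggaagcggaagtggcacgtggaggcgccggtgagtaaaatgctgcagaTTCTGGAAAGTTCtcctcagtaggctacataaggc
Chordc1: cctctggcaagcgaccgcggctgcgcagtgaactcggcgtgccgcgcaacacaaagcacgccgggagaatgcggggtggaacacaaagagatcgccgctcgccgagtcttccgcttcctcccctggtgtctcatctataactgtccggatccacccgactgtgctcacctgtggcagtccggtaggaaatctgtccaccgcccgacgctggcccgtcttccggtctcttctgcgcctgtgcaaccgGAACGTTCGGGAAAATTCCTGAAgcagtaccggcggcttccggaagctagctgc
Hspe1: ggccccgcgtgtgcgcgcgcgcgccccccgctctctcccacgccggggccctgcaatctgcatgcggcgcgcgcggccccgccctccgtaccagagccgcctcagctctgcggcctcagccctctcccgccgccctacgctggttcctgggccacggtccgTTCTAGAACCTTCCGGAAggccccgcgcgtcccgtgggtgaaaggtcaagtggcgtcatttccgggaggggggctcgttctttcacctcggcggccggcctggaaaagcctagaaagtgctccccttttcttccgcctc

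**Figure D3:**
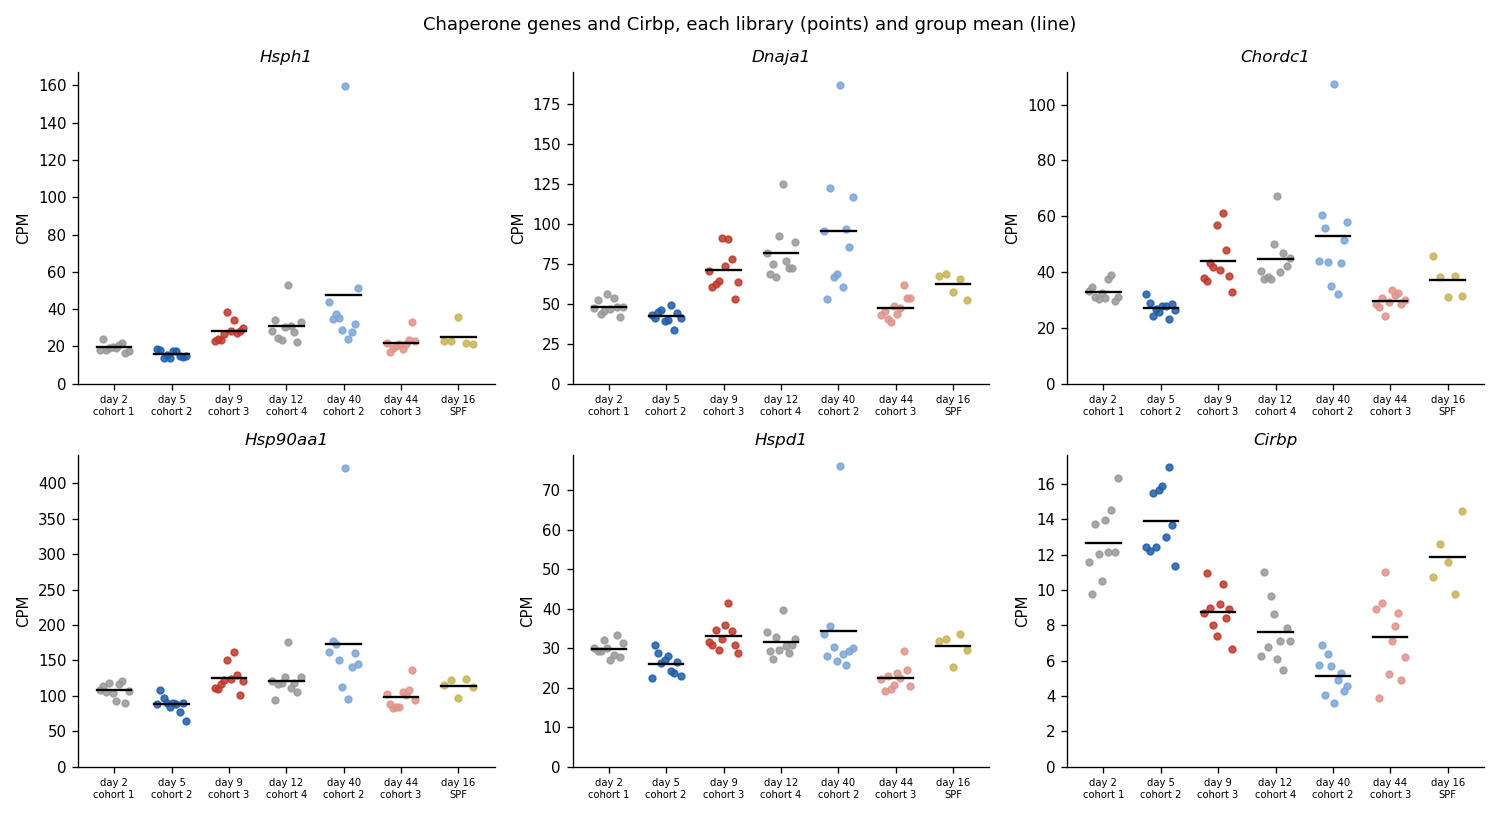
CPM of 5 chaperone genes and Cirbp in every library of 7 groups; points are libraries and lines group means. Hsph1, Dnaja1 and Chordc1 on day 9 lie above all day 5 libraries, Cirbp lies below them, and on day 44 the chaperone medians are below those on day 40.

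Some neutrophil genes rose, with wide spread between mice. Of 20 mature neutrophil genes 6 were called higher and 0 lower (30%, against 22.8% of all genes), with a list median of 0.63. With the GC trend removed 2 were called (10%, against 6.62%), at a median of 0.58. S100a8, a subunit of the antimicrobial protein calprotectin (chromosome 3, 90576285 to 90577342, plus strand), was between 62.4 and 235 CPM (median 155.7) on day 5 and between 96.9 and 906 CPM (median 295) on day 9. Day 9 replicate 5 stood far above the rest, and the rise of 1.26 ± 0.32 (adjusted p = 0.0116) was 0.97 (adjusted p = 0.0181) without it. The other subunit gene, S100a9, was between 131.5 and 356 CPM (median 278) on day 5 and between 241 and 1042 CPM (median 400.3) on day 9 and rose by 0.88 ± 0.27 (adjusted p = 0.0266), or 0.69 (adjusted p = 0.0469) without replicate 5. Retnlg, a neutrophil resistin-like gene, rose by 0.93 ± 0.27 (adjusted p = 0.0201). Acod1, the itaconate enzyme, was called at 1.51 ± 0.51 (adjusted p = 0.0411), but not without replicate 5, at 1.10 (adjusted p = 0.0895).

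The lectin receptor genes Clec4e, at 0.86 ± 0.28 (adjusted p = 0.0327), and Clec4d, at 0.57 ± 0.18 (adjusted p = 0.0324), were called as counted. With the GC trend removed they were at 0.68 (adjusted p = 0.157) and 0.36 (adjusted p = 0.28), and S100a9, Retnlg and Acod1 at 0.81 (adjusted p = 0.0833), 0.90 (adjusted p = 0.0508) and 1.51 (adjusted p = 0.088), none of them then called. Steap4, a metalloreductase, was between 2.02 and 10.1 CPM (median 4.29) on day 5 and between 2.02 and 40.3 CPM (median 6.30) on day 9, and its difference of 0.95 (adjusted p = 0.157) did not pass the test. Median Steap4 was 2.52 CPM (day 2), 4.29 (day 5), 6.30 (day 9) and 26.9 (day 12), and 123.8 CPM in cohort 2 on day 40. Csf3r, the receptor for the neutrophil growth factor, was at -0.18 (adjusted p = 0.453). Among 7 neutrophil granule genes tested 2 were called higher and 1 lower (42.9%, against 22.8% of all genes). Chil3, a chitinase-like protein, rose by 0.84 ± 0.18 (adjusted p = 0.0039) and Lyz2, lysozyme, by 0.27 ± 0.09 (adjusted p = 0.0346), and both were called with the GC trend removed. Cd177 was lower, at -0.34 (adjusted p = 0.0446), and then at -0.09 (adjusted p = 0.681). Of 12 complement and chemoattractant receptors 2 were called (16.7%, against 22.8% of all genes). Ccr1 (0.74, adjusted p = 0.0123) and the Fc receptor Fcgr3 (0.45, adjusted p = 0.0347) were higher. With the GC trend removed they were at 0.49 (adjusted p = 0.157) and 0.50 (adjusted p = 0.0506), not called.

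Monocyte genes split. Nonclassical monocytes patrol vessels, depend on the nuclear receptor Nr4a1 and carry Csf1r, Treml4 and, in mouse blood, the peptidase Ace, while classical monocytes carry Ccr2, Ly6c2 and F13a1. Of 13 monocyte genes tested 3 were called higher and 4 lower (53.8%, against 22.8% of all genes). Ace (chromosome 11, 105858771 to 105880790, plus strand) was between 24.5 and 35.6 CPM (median 30.6) on day 5 and between 6.64 and 23.7 CPM (median 10.1) on day 9, with every day 9 library below every day 5 library, and fell with a difference of -1.37 ± 0.20 (adjusted p = 0.000384). Nr4a1, placed in the immediate early list, was between 4.98 and 9.20 CPM (median 7.28) on day 5 and between 1.79 and 5.57 CPM (median 3.07) on day 9, with some overlap, and fell with a difference of -1.11 ± 0.17 (adjusted p = 0.000285). Csf1r, the receptor for macrophage colony-stimulating factor, was between 39.9 and 73.2 CPM (median 56.3) on day 5 and between 23.9 and 54.7 CPM (median 35.6) on day 9 and was lower, at -0.57 ± 0.12 (adjusted p = 0.00326). Treml4 (-0.55, adjusted p = 0.0211) was lower as counted, and with the GC trend removed it was at -0.45 (adjusted p = 0.0939) and not called. Ace (-1.14, adjusted p = 0.000926), Nr4a1 (-0.83, adjusted p = 0.00113) and Csf1r (-0.36, adjusted p = 0.019) were called in that fit.

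Of the classical genes, the transglutaminase F13a1 was between 114.3 and 165.4 CPM (median 136.6) on day 5 and between 159.4 and 213 CPM (median 179.6) on day 9 and rose by 0.38 ± 0.08 (adjusted p = 0.00154), also with the GC trend removed. Ccr2 (0.48, adjusted p = 0.00516) was called only as counted, with 0.23 (adjusted p = 0.217) after removal of the GC trend, and Ly6c2 was at 0.20 (adjusted p = 0.191). Psap, the saposin precursor of lysosomes, was between 71.4 and 110.5 CPM (median 90.3) on day 5 and between 40.6 and 72.7 CPM (median 51.3) on day 9 and fell with a difference of -0.73 ± 0.10 (adjusted p = 0.000142). The tumour necrosis factor receptor genes fell too, Tnfrsf1a at -0.87 ± 0.14 (adjusted p = 0.000293) and Tnfrsf1b at -0.75 ± 0.12 (adjusted p = 0.000475), and all 3 were called in both fits. Median Ace was 22.8 CPM (day 2), 30.6 (day 5), 10.1 (day 9) and 9.72 (day 12), 8.51 CPM on day 40, 9.74 CPM on day 44 and 11.8 CPM in the SPF controls. Of 8 dendritic cell genes 1, Itgax, was lower, at -0.28 (adjusted p = 0.0472), and none was called with the GC trend removed.

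The largest falls were of genes of solid tissue. All 12 largest falls named by the rule belonged to bone, matrix or growth genes, and every list of solid tissue with a called member had lower members only. Of 12 collagen and connective tissue genes 7 were called lower and 0 higher (58.3%, against 22.8% of all genes), with a median of -1.76. With the GC trend removed 3 were lower (25%, against 6.62%), Lum, Sparc and Col5a2, with a list median of -1.61. The calls of Sparc and Col5a2 in that fit held in 4 and 6 of the 20 fits with 1 library left out. Lum, the proteoglycan lumican (chromosome 10, 97400990 to 97408565, plus strand), was between 0.960 and 14.03 CPM (median 4.12) on day 5 and between 0.200 and 3.58 CPM (median 0.871) on day 9. The groups overlapped, and the difference was -2.36 ± 0.54 (adjusted p = 0.00654). Col1a1, the main chain of collagen I, was between 5.31 and 64.96 CPM (median 28.2) on day 5 and between 0.849 and 24.8 CPM (median 4.87) on day 9 and fell with a difference of -2.08 ± 0.54 (adjusted p = 0.0126), which was -1.65 (adjusted p = 0.0887) with the GC trend removed. Sparc (-1.81, adjusted p = 0.0117), Col5a1 (-1.65, adjusted p = 0.00955), Col5a2 (-1.84, adjusted p = 0.0148) and Col1a2 (-1.94, adjusted p = 0.0185) were lower as well. The summed level of the list was between 50.3 and 486 CPM on day 5 (median 247) and between 33.7 and 226 CPM on day 9 (median 77.4).

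Bone and matrix genes outside that list fell too. Bglap, osteocalcin, had the largest fall, from a median of 0.900 to 0.116 CPM, at -3.44 ± 0.53 (adjusted p = 0.000316), with its near-identical neighbour Bglap2 at -3.29 ± 0.60 (adjusted p = 0.00127). Reads may be split between these copies. Bglap was too low on day 9 to pass the filter on low counts with those libraries alone, so its place as the largest fall depends in part on the filter. Col16a1 (-2.84, adjusted p = 0.00129), elastin Eln (-2.41, adjusted p = 0.00531), thrombospondin 2 Thbs2 (-2.41, adjusted p = 0.0119), cadherin 11 Cdh11 (-2.21, adjusted p = 0.00517) and tenascin Tnc (-2.15, adjusted p = 0.0023) were lower. So were the secreted inhibitor gene Serpinf1 (-2.10, adjusted p = 0.00376) and Pcolce (-2.06, adjusted p = 0.0158), which helps to process procollagen, and Pcolce was at -1.81 (adjusted p = 0.0638) with the GC trend removed and not called. Alpl, bone alkaline phosphatase, was lower at -1.49 (adjusted p = 0.00576). Col10a1, of growth plate cartilage, was between 1.83 and 7.40 CPM (median 3.61) on day 5 and between 0.949 and 4.93 CPM (median 2.06) on day 9 and was not called, at -0.63 (adjusted p = 0.128).

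Of 8 endothelial genes 6 were called lower and 0 higher (75%, against 22.8% of all genes), with a median of -0.94. With the GC trend removed 4 were lower (50%, against 6.62%), at a list median of -0.73. Egfl7, secreted by vessel wall cells, was between 2.53 and 8.51 CPM (median 4.59) on day 5 and between 1.10 and 3.86 CPM (median 1.80) on day 9 and fell with a difference of -1.35 ± 0.23 (adjusted p = 0.000645). Emcn (-0.88, adjusted p = 0.00943), Cdh5 (-1.03, adjusted p = 0.0109) and the angiopoietin receptor gene Tek (-0.87, adjusted p = 0.0122) were lower. Cavin1, a coat protein of caveolae singled out after its values were seen, was between 20.99 and 39.9 CPM (median 26.6) on day 5 and between 12.2 and 19.9 CPM (median 15.7) on day 9, without overlap, and fell with a difference of -0.84 ± 0.11 (adjusted p = 2.68e-05), or -0.52 (adjusted p = 0.0195) with the GC trend removed. Of 3 fat genes tested 2 were called (66.7%, against 22.8% of all genes). The fatty acid carrier Fabp4 (-1.18, adjusted p = 0.00664) and the lipase Lpl (-1.29, adjusted p = 0.00326) were lower in both fits. These are made by endothelial cells or macrophages too. No keratinocyte gene of 6 and no skeletal muscle gene of 4 was called, with Dsp at -0.38 (adjusted p = 0.821), Perp at 0.20 (adjusted p = 0.892), Ttn at 0.31 (adjusted p = 0.178) and Tnnt3 at -0.04 (adjusted p = 0.823); 5 keratinocyte and 6 muscle genes in the table were too low to test.

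Levels of tissue genes were set in part by single libraries. The summed level of the cartilage and bone list was between 12.3 and 373 CPM on day 5 (median 30.5) and between 2.82 and 266 CPM on day 9 (median 10.2), with the highest values in day 5 replicate 7 and day 9 replicate 2, and Matn1 was at 0 in all libraries. The keratinocyte sum had medians of 9.41 and 2.82 CPM, and the endothelial sum 127.7 and 115.8 CPM. Without those 2 libraries Lum was at -2.33 (adjusted p = 0.012), Fabp4 at -1.21 (adjusted p = 0.0106), Egfl7 at -1.41 (adjusted p = 0.00113) and Bglap at -3.44 (adjusted p = 0.000548).

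Imprinted growth genes, which are highly expressed in young tissue and decline with age, were lower. Of 5 tested, 3 were called lower and 0 higher (60%, against 22.8% of all genes). H19, a noncoding RNA of the Igf2 locus (chromosome 7, 142129266 to 142131880, minus strand), was between 1.20 and 8.90 CPM (median 2.32) on day 5 and between 0.225 and 1.09 CPM (median 0.617) on day 9, without overlap, and fell with a difference of -2.15 ± 0.35 (adjusted p = 0.000623). H19 passed the filter on low counts by its day 5 libraries, while day 9 values reached down to 0.225 CPM. Its lack of overlap may therefore depend in part on the filter. Igf2, the growth factor beside it, was between 0.789 and 3.53 CPM (median 1.91) on day 5 and between 0.316 and 1.23 CPM (median 0.660) on day 9 and fell with a difference of -1.41 ± 0.25 (adjusted p = 0.000665). Grb10, a growth inhibitor, was at -1.19 (adjusted p = 0.028), and at -1.16 (adjusted p = 0.0678) with the GC trend removed, not called. Median H19 was 2.91 CPM (day 2), 2.32 (day 5), 0.617 (day 9) and 0.634 (day 12), and 0.0759 and 0.0162 CPM at the second sampling. With the list mean of collagen genes as a covariate 1718 genes were called, H19 was at -1.03 (adjusted p = 0.0363) and Egfl7 at -0.75 (adjusted p = 0.0562). The part of tissue RNA in the other results was not tested beyond these values.

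**Figure D4:**
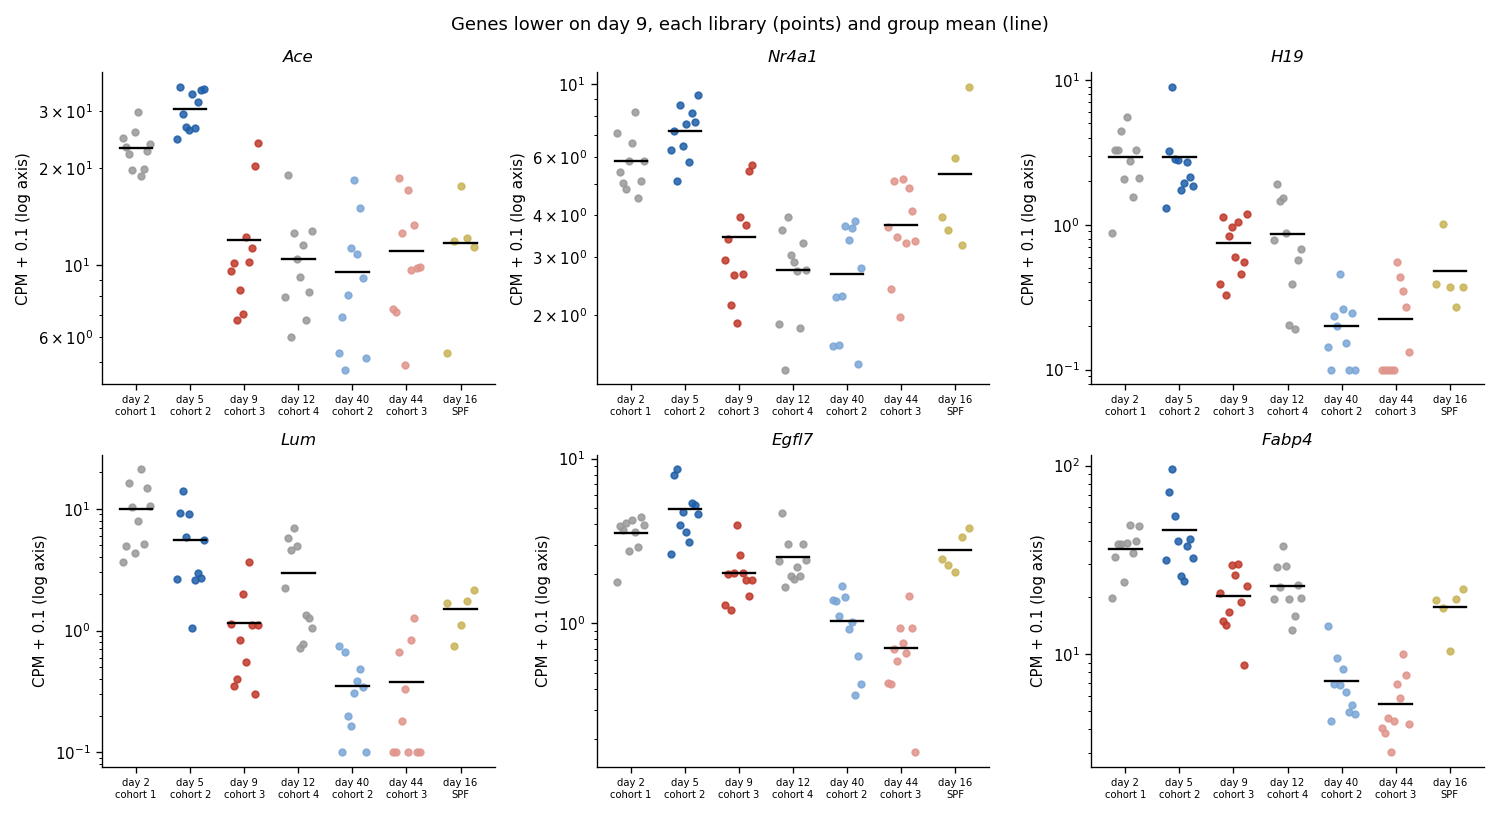
CPM plus 0.1 (log axis) of 6 genes lower on day 9 in every library of 7 groups; points are libraries and lines group means. Ace and H19 on day 9 lie below all day 5 libraries, while Lum, Egfl7, Fabp4 and Nr4a1 overlap.

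A few platelet genes rose by small amounts. Of 16 platelet genes 3 were called higher and 0 lower as counted (18.8%, against 22.8% of all genes), at a list median of 0.15. After removal of the GC trend 4 were higher and 0 lower (25%, against 6.62% of all genes), at a median of 0.32. The collagen receptor gene Gp6 was between 67.3 and 124.4 CPM (median 90.6) on day 5 and between 102.2 and 141.1 CPM (median 126.9) on day 9 and rose by 0.44 ± 0.09 (adjusted p = 0.00182), with Gp1ba at 0.43 (adjusted p = 0.0405) and Thbs1 at 0.30 (adjusted p = 0.0455). Of 21 erythroid genes 5 were higher (23.8%), a share near that of all genes, among them the transferrin receptor Tfrc (0.41, adjusted p = 0.0123) and Hemgn (0.22, adjusted p = 0.0417). Klf1, the master factor of red cell genes, rose by 0.57 ± 0.17 (adjusted p = 0.0161) and was the 1 erythroid gene called with the GC trend removed, at 0.97 (adjusted p = 0.00166). Alas2, the first enzyme of heme synthesis in red cells, was between 28376 and 44016 CPM (median 36856) on day 5 and between 28352 and 50122 CPM (median 34150) on day 9, at 0.01 (adjusted p = 0.946). Globin transcripts were lower as counted: Hba-a1 was at -1.12 (adjusted p = 0.00611) and Hbb-bs, between 17233 and 40286 CPM (median 27267) on day 5 and between 4694 and 25464 CPM (median 20396) on day 9, at -0.64 (adjusted p = 0.0451). With the GC trend removed they were at -0.78 (adjusted p = 0.0904) and -0.52 (adjusted p = 0.191), not called. Globin RNA is a target of the depletion step, so its level also depends on how complete that step was, which was not tested.

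Of 14 genes of the mitochondrial genome 8 were called higher and 1 lower (64.3%, against 22.8% of all genes). With the GC trend removed 2 were higher and 1 lower (21.4%, against 6.62%). These transcripts are poor in GC, with a median of 35.9%. The overlapping ATP synthase genes mt-Atp8 and mt-Atp6 were at 1.16 (adjusted p = 0.0072) and 0.98 (adjusted p = 0.0014), mt-Co2 at 0.69 (adjusted p = 0.00228) and mt-Nd4 at 0.48 (adjusted p = 0.00187). After removal of the GC trend mt-Atp6 was at 0.64 (adjusted p = 0.0482) and mt-Co2 at 0.42 (adjusted p = 0.0376). The 16S rRNA gene mt-Rnr2 was between 31531 and 50092 CPM (median 42032) on day 5 and between 25124 and 81383 CPM (median 70717) on day 9 and was higher, at 0.61 (adjusted p = 0.0163), or 0.22 (adjusted p = 0.444) with the GC trend removed.

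Ribosomal protein and antigen presentation genes differed by small amounts. Of 28 cytosolic ribosomal protein genes 17 were called lower and 0 higher (60.7%, against 22.8% of all genes), with a median of -0.23, or -0.11 with the GC trend removed. In that fit 5 were lower, among them Rpl18 (-0.26, adjusted p = 0.0341), and 1 was higher; Rps14 and Rpl8 were called only as counted, at -0.42 and -0.44. Of 10 MHC class II genes 5 were lower (50%, against 22.8% of all genes). Cd74, the invariant chain, was at -0.71 ± 0.17 (adjusted p = 0.00815) and alone stayed called with the GC trend removed, at -0.44 (adjusted p = 0.0453), while H2-Ab1 (-0.40, adjusted p = 0.00324), H2-Oa (-0.48, adjusted p = 0.0159) and H2-DMa (-0.40, adjusted p = 0.0401) did not. Of 10 MHC class I genes 4 were lower and 1 higher (50%, against 22.8% of all genes), and none was called with the GC trend removed. The peptide transporters Tap1 (-0.42, adjusted p = 0.00531) and Tap2 (-0.43, adjusted p = 0.00228) and the immunoproteasome gene Psmb9 (-0.27, adjusted p = 0.0385) were among those lower. The higher gene was B2m (0.29, adjusted p = 0.0433).

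Among lymphocyte lists the shares of genes called as counted, against 22.8% of all genes, were 33.3% for B cells, 25% for T cells and 21.4% for natural killer and cytotoxic cells. Of 18 B cell genes 3 were higher and 3 lower and none was called with the GC trend removed. Cr2 (0.35, adjusted p = 0.00301) and Bank1 (0.34, adjusted p = 0.00738) were higher, and Spib (-0.32, adjusted p = 0.0179) and Cd79b, a chain of the antigen receptor, were lower; Cd79b was between 116.98 and 194.6 CPM (median 155.7) on day 5 and between 95.7 and 165.5 CPM (median 119.3) on day 9, at -0.33 (adjusted p = 0.0123). Of 20 T cell genes 1 was higher, Cd28 (0.29, adjusted p = 0.00687), and 4 lower, among them Ccr7 (-0.33, adjusted p = 0.00651), Bcl11b (-0.23, adjusted p = 0.0411) and Cd5 (-0.24, adjusted p = 0.0328). The plasma cell marker Sdc1 was lower (-0.64, adjusted p = 0.0055), the 1 gene called of 13 in the immunoglobulin and plasma cell list. Ikzf2 was higher (0.36, adjusted p = 0.00595), the 1 gene called of 8 in the regulatory T cell list, whose median was -0.33. Neither call held after removal of the GC trend. The regulatory T cell list then had 0 genes called, and the plasma cell list had 1 higher and 0 lower. Of 14 natural killer and cytotoxic genes 3 were higher, Klre1 (0.65, adjusted p = 0.00127), Klrd1 (0.41, adjusted p = 0.0164) and Klrk1 (0.36, adjusted p = 0.00913). With the GC trend removed Klre1 stayed called, at 0.44 (adjusted p = 0.0265), and Eomes was called, at 0.41 (adjusted p = 0.0283) against 0.22 (adjusted p = 0.155) as counted. Klrd1 was then not called, and Klrk1 was at -0.08 (adjusted p = 0.733).

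Signals of allergy other than the eosinophil genes were small at this time. None of 11 basophil and mast cell genes tested was called in either fit, with Hdc, the histamine enzyme, between 8.35 and 20.8 CPM (median 13.8) on day 5 and between 8.81 and 30.1 CPM (median 16.1) on day 9 and Ms4a2, a chain of the IgE receptor, between 4.28 and 10.5 CPM (median 6.41) on day 5 and between 5.71 and 11.1 CPM (median 7.84) on day 9. Of 10 genes of type 2 cytokine and alarmin signalling 2 were called (20%, against 22.8% of all genes). The interleukin 33 receptor Il1rl1 was higher (0.25, adjusted p = 0.0388) and Crlf2, the thymic stromal lymphopoietin receptor, lower (-0.60, adjusted p = 0.0398). Neither was called with the GC trend removed. Of 29 genes induced by type I interferon 4 were higher and 0 lower (13.8%, against 22.8% of all genes), with a median of 0.15. Rsad2, an antiviral enzyme at high level, was between 1726 and 2915 CPM (median 2437) on day 5. On day 9 it was between 2359 and 4474 CPM (median 3140), a difference of 0.41 (adjusted p = 0.0123). Trim30a was at 0.39 (adjusted p = 0.00147), Herc6 at 0.28 (adjusted p = 0.0131) and Ifit2 at 0.21 (adjusted p = 0.0372). Gbp7 (0.38, adjusted p = 0.0048) and Tgtp1 (0.33, adjusted p = 0.0289) were higher among 14 genes of the interferon gamma list (14.3%). Both interferon lists thus had a smaller share called than all genes, and no gene of either was called with the GC trend removed.

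Of 13 clock genes 5 were lower and 1 higher (46.2%, against 22.8% of all genes). Tef, a clock output factor, was between 11.6 and 18.99 CPM (median 12.4) on day 5 and between 6.38 and 12.02 CPM (median 9.20) on day 9 and fell with a difference of -0.55 ± 0.10 (adjusted p = 0.000829), also with the GC trend removed. Dbp (-0.75, adjusted p = 0.00915) and Cry2 (-0.67, adjusted p = 0.0113) were lower and Clock higher (0.25, adjusted p = 0.0189) only as counted; with the GC trend removed they were at -0.33 (adjusted p = 0.332), -0.42 (adjusted p = 0.151) and 0.05 (adjusted p = 0.718). In turn, Nr1d2 (-0.36, adjusted p = 0.013) and Nfil3 (0.55, adjusted p = 0.0315) were called only in that fit. The labels give no hour of sampling. Genes that glucocorticoids induce included 3 of 9 called lower (33.3%), Ddit4 (-0.58, adjusted p = 0.00853), Klf9 (-0.48, adjusted p = 0.0382) and Per1 (-0.57, adjusted p = 0.042). The immediate early list had 3 of 11 lower (27.3%, against 22.8% of all genes), Nr4a1 with Ier2 (-0.76, adjusted p = 0.00158) and Jun (-0.60, adjusted p = 0.00641). Of the genes in both lists, Nr4a1 alone was called with the GC trend removed. Of 16 cell cycle genes Mki67 (0.41, adjusted p = 0.00739) and Ccna2 (0.39, adjusted p = 0.022) were higher, Mki67 in both fits. The serine synthesis genes Phgdh (-0.59, adjusted p = 0.00769) and Psat1 (-0.32, adjusted p = 0.0442) were the 2 lower of 12 amino acid stress genes. This is 16.7%, against 22.8% of all genes, and neither was called with the GC trend removed.

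**Figure D5:**
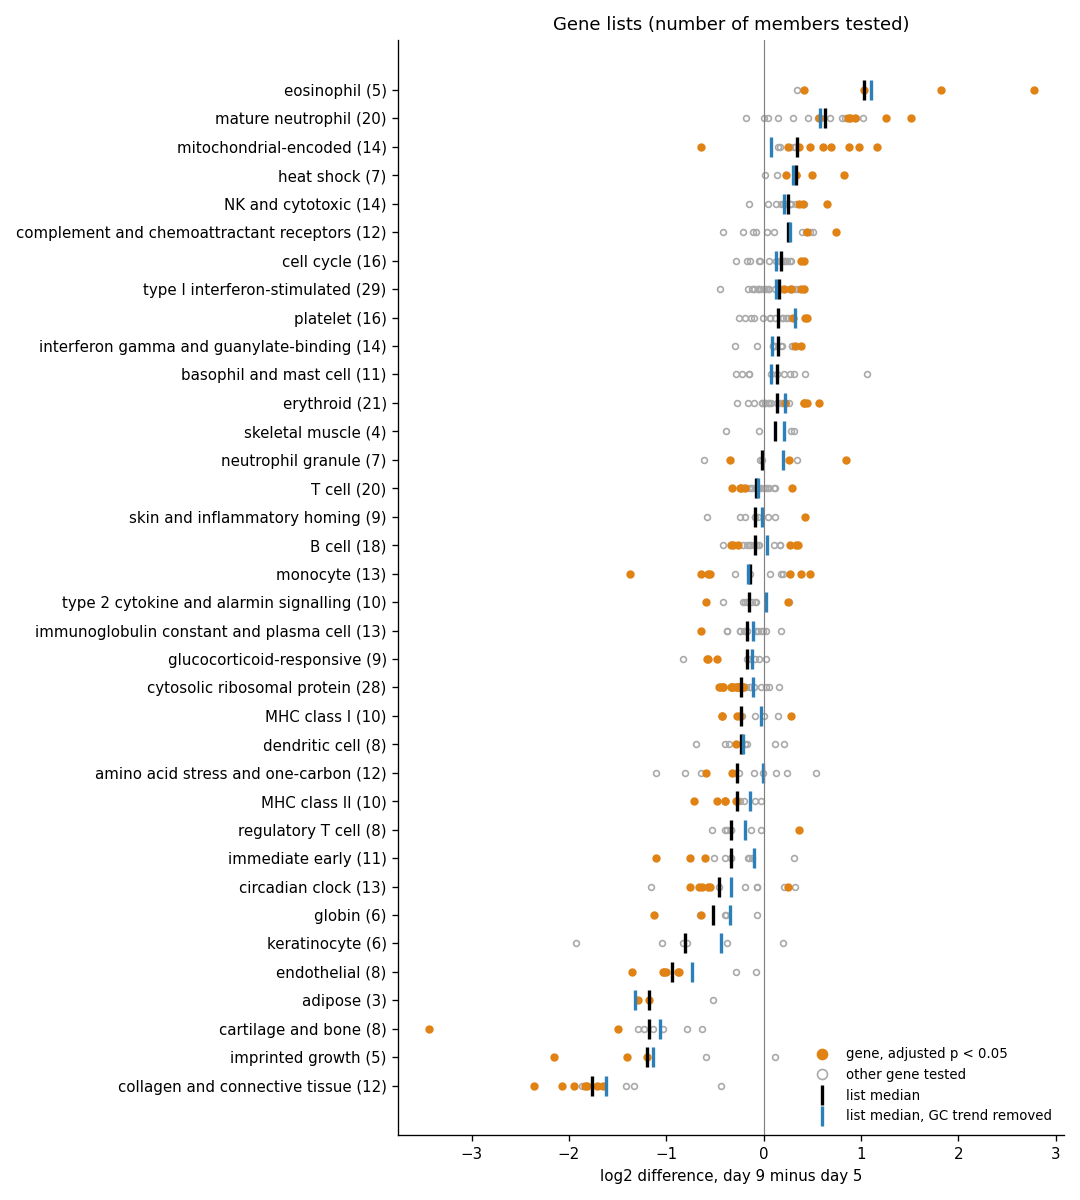
Log2 difference between day 9 and day 5 of each tested gene in 36 lists (number tested in parentheses); orange points are called genes, grey circles others, black bars list medians as counted and blue bars list medians with the GC trend removed. The eosinophil list has the highest median, 1.03, and the collagen list the lowest, -1.76.

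The step from day 5 to day 9 was set against the step before it, from day 2 to day 5, in a fit of the 40 first-sampling libraries of cohorts 1 to 4. From day 2 to day 5, 402 of 15349 genes were called (2.62%, or 1.75% with the GC trend removed), and from day 5 to day 9, 2802 (18.3%, or 4.22%). Both steps use the day 5 libraries, so a value that stands apart on day 5 enters them with opposite sign. The steps themselves differed for 1613 genes (10.5%), and for 226 (1.47%) with the GC trend removed. Among the latter, Ccr3 had a step of -0.09 (adjusted p = 0.893) and then of 2.78 (adjusted p = 6.29e-10), and the steps differed by 2.87 (adjusted p = 0.000373). P2ry14 went from -0.37 (adjusted p = 0.383) to 2.29 (adjusted p = 6.29e-10). Siglecf had steps of 0.89 (adjusted p = 0.0608) and 1.03 (adjusted p = 0.00605), and a difference between its steps was not detected, at 0.14 (adjusted p = 0.873).

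Other genes were higher on day 5 than on both day 2 and day 9. Psap had steps of 0.50 (adjusted p = 0.00531) and -0.73 (adjusted p = 9.66e-06), Tnfrsf1a of 0.88 (adjusted p = 0.00394) and -0.86 (adjusted p = 0.00085), and Tnfrsf1b of 0.50 (adjusted p = 0.0122) and -0.74 (adjusted p = 6.38e-05), with Psap medians of 59.8 CPM on day 2, 90.3 CPM on day 5 and 51.3 CPM on day 9. Csf1r showed the same course, with steps of 0.54 (adjusted p = 0.00802) and -0.56 (adjusted p = 0.00155). For Ace the first step was 0.41 (adjusted p = 0.239) and the second -1.36 (adjusted p = 1.5e-05), and its day 9 median lay below that of day 2. Gp6 moved the other way, at -0.51 (adjusted p = 0.00635) and 0.45 (adjusted p = 0.00458). Among the chaperones Hsph1 had a first step of -0.29 (adjusted p = 0.123), and the steps differed by 1.12 (adjusted p = 0.000572).

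The same cohorts were sampled again, cohort 2 on day 40 and cohort 3 on day 44. Cohort 3 was again sampled later, so day and cohort cannot be told apart here either. The median dermatitis score was 2.5 in cohort 2 on day 40 and 3.0 in cohort 3 on day 44. In this fit of 40 libraries 1142 of 14901 genes were called between day 9 and day 5 (7.66%, or 1.03% with the GC trend removed). At the second sampling 31 of 14901 genes were called (0.208%, or 0.242%), 12 higher and 19 lower in cohort 3, and 1981 were at an unadjusted p under 0.05. Of these 31, 22 had also been called between day 9 and day 5, and 0 with the same sign. The difference between the cohorts changed from the first to the second sampling for 1555 genes (10.4%), and for 252 (1.69%) with the GC trend removed. Ccr3 differed by -0.38 (adjusted p = 0.608) between the cohorts at the second sampling, P2ry14 by -0.40 (adjusted p = 0.605), Alox15 by -0.04 (adjusted p = 0.97) and Ace by 0.22 (adjusted p = 0.727), and for each of these 4 the change from the first sampling was called. The labels do not say whether a number refers to the same mouse at both samplings, and the libraries were taken as independent.

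Among the genes called at the second sampling were chaperones, and these were lower in cohort 3. Dnaja1 was at -0.999 (adjusted p = 8.48e-05), Chordc1 at -0.83 (adjusted p = 0.000518), Dnajb1 at -0.87 (adjusted p = 8.48e-05), Hsph1 at -1.10 (adjusted p = 0.00673) and Hsp90aa1 at -0.81 (adjusted p = 0.00444), with Ccdc117 at -0.69 (adjusted p = 0.000518) and the unnamed gene model Gm15542 at -1.17 (adjusted p = 4.56e-05). Cohort 2 replicate 6 on day 40 stood far above the other libraries of its group for these genes, with 159.6 CPM of Hsph1 against 51.3 CPM in the next library and 422 CPM of Hsp90aa1 against 176.9 CPM. Without it 19 genes were called at the second sampling, of which 14 had been called between day 9 and day 5 and 0 with the same sign. Hsph1 was then at -0.68 (adjusted p = 0.00143), Hsp90aa1 at -0.57 (adjusted p = 0.00646), Dnaja1 at -0.85 (adjusted p = 0.000184), Chordc1 at -0.67 (adjusted p = 0.000638) and Dnajb1 at -0.74 (adjusted p = 0.000184), all still called. All 7 heat shock genes tested between day 9 and day 5 had a called change between samplings, by 1.95 (adjusted p = 0.000109) for Hsph1. Without that library 8 heat shock genes were tested and 6 had a called change. Hspa1b lost its call, at 1.58 (adjusted p = 0.052), and Hspa1a was not called, at 1.455 (adjusted p = 0.172). Hsph1 was then at 1.53 (adjusted p = 5.82e-08). The order of the cohorts was opposite at the 2 samplings, with Hsph1 medians of 14.97 CPM (cohort 2, day 5), 27.5 (cohort 3, day 9), 35.1 (cohort 2, day 40) and 21.3 (cohort 3, day 44). Median Hsph1 was 19.1 CPM on day 2, 29.3 on day 12 and 22.9 in the SPF controls.

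The study's title names dynamical network biomarkers, a method that looks for fluctuation before a change of state, so the spread between mice was compared too. Spread was taken as the mean absolute deviation of log2 CPM from the group median. It was larger on day 9 for 63.99% of genes, with a median over genes of 0.192 on day 5 and 0.219 on day 9. In limma 0 of 14153 genes were called (0%), against 576 at an unadjusted p under 0.05, of which 479 had more spread on day 9. Finding 0 calls does not show equal spread. The smallest p values were those of Nsmaf, a sphingomyelinase adaptor, with a deviation of 0.0156 on day 5 and 0.127 on day 9 (adjusted p = 0.994), Lcmt2 (0.0901 on day 5 and 0.481 on day 9) and Lrrc40 (0.0470 on day 5 and 0.229 on day 9). After the globin and mitochondrial rRNA shares were taken out the share of genes with more spread on day 9 was 55.3%.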

How the data were processed

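Whole-blood RNA was sequenced from NC/Nga mice, and the authors deposited expected counts and TPM per gene for 190 libraries. Per the submitters' processing notes DRAGEN and build GRCm39 were used; the sources used here name no version, annotation or counting setting. Of the deposited expected counts 2.86% were not whole, and all were rounded. The deposited TPM values entered one alternative only, as log2(TPM + 1).

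Genes with at least 10 counts in enough libraries and 15 in all (filterByExpr) were tested in edgeR 4.0.16 (R 4.3.3) with TMM scaling and the robust quasi-likelihood test, two-sided, on the 20 libraries. Adjusted p-values are Benjamini-Hochberg over all genes tested, and a gene is called under 0.05. The standard error is the log2 difference divided by the root of F. CPM use TMM-scaled library sizes. To remove the GC trend, a smooth curve of log2 level on the GC share of each gene's longest transcript was fitted in each library and entered as an offset; this was added after the data were seen. Spread was tested with limma 3.58.1 on absolute deviations of log2 CPM (prior count 2). The procedures were tested on simulated data. Other comparisons used the 40 libraries of days 2, 5, 9 and 12, or both samplings of cohorts 2 and 3. Alternatives included other scalings, DESeq2 1.42.0, filters, covariates, each library left out and a replicate block. Fits without libraries that stand apart, one of them cohort 2 day 40 replicate 6, were chosen after seeing the data.

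Genes are named by rule: the 12 largest rises and falls that stay called whichever library is left out and reach 1 CPM, up to 4 called members of each of 36 lists (or 2 uncalled members by level), the smallest p-values of the tests of spread, steps and samplings, and a fixed panel of 13 genes. The members and lists were chosen with earlier results of these data known. Adora3, Cirbp, Treml4, Hspe1, Ear2, Clec4e, Cavin1, Eomes, Nfil3, Nr1d2, Col5a2, Col1a2, Csf3r, Ly6c2, Hspa1b and the untested eosinophil genes were named outside the rule, after their values were seen. A few genes that the rule names are not reported here. Library totals were 21706745 to 47564624.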

Additional observations from a re-analysis of the deposited data

Results flagged for a closer look

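Single libraries stood far above the other 9 of their day in 16 gene or list values, 14.5% of those examined, by the gap to the next library relative to the range. All 16 were at the high end, and some share a library or are parts of a sum. The share can therefore not be set against the 1 in 20 that chance gives for independent values of symmetric spread. On day 9 the highest library had 906.2 CPM of S100a8, 7.16 CPM of Acod1, 40.3 CPM of Steap4 and a mature neutrophil sum of 2774.3 CPM, all in replicate 5. On day 9 the highest values of Lum (3.58 CPM), Col1a1 (24.8 CPM) and Egfl7 (3.86 CPM) stood apart. So did the day 9 sums of collagen (226.5 CPM), cartilage and bone (265.7 CPM) and fat genes (317.5 CPM). On day 5 they were Retnlg (62.9 CPM), H19 (8.9 CPM), Tef (19 CPM) and the sums of cartilage and bone (373.5 CPM), fat (390.1 CPM) and keratinocyte genes (51.7 CPM).

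The difference between cohort 3 and cohort 2 was not the same at the first and second sampling for 1555 genes in edgeR's interaction test. On the log2 scale the value for cohort 3 less that for cohort 2 was larger at the first sampling than at the second by 3.18 for Ccr3, 2.71 for P2ry14, 1.88 for Alox15, 1.19 for Siglecf, 3.45 for Tmem229a, 2.59 for Abcc2, 1.41 for Gapt, 2.89 for Adora3, 1.95 for Hsph1, 1.76 for Dnaja1, 1.53 for Chordc1, 1.32 for Hsp90aa1, 0.955 for Hspd1, 1.05 for Klf1. The same signed value was lower at the first sampling than at the second, with a change of -1.18 for Cirbp, -1.57 for Ace, -1.58 for Nr4a1, -1.16 for Psap, -1.71 for Lpl. Being signed, it does not mean that the cohorts differed less at the first sampling.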

How the results depend on the processing

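The 3229 genes called, and the 31.2% of list members called, kept within 1.5 times of these counts under DESeq2 size factors, DESeq2's Wald test, 3 filters on low counts, a fit of 40 libraries, limma on log2 CPM and removal of abundant genes before scaling. Genes called, and the share of list members tested, were 1519 and 15.8% with 90 libraries, 120 and 4.66% with limma on log2(TPM + 1), 1082 and 19.1% on rescaled TPM, and 1718 and 19.1% with the collagen mean as a covariate. They were 668 and 10.00% with the mitochondrial rRNA share, 24 and 0.466% with the globin share and 1 and 0% with both, a fit in which 971 of the 14153 genes tested were at an unadjusted p under 0.05. With the GC trend removed they were 937 and 12.4%, and then 13 and 0.699% with the globin share, 1 and 0% with both shares, 558 and 9.79% with the collagen mean, and 640 and 10.00% without day 5 replicate 7 and day 9 replicate 2. A difference of at least 1 on the log2 scale left 285 genes. With each library left out in turn the counts ran from 2484 to 3734 genes and 24.5% to 33.6% of members, and from 619 to 1011 and 8.84% to 15.6% with the GC trend removed; 2070 genes stayed called in all 20 fits. Removing the GC trend left 226 genes for the steps and 252 for the samplings, and without cohort 2 day 40 replicate 6 the second sampling gave 19 genes and the samplings 1360. The cause was not tested. The test of spread gave 0 calls in its alternatives.

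Of the genes named as called, 24 lost the call in the edgeR fit as counted when some single library was left out, with an unchanged sign. Each is given with the number of the 20 fits that kept the call and its highest adjusted p: Bcl11b (9, 0.0802) without day 5 replicate 1, Klf9 (9, 0.0795) without day 5 replicate 3, Gp1ba (8, 0.0671) without day 5 replicate 4, Hbb-bs (4, 0.079) without day 5 replicate 5, Grb10 (19, 0.0525), Il1rl1 (8, 0.0697) and Tgtp1 (17, 0.0539) without day 5 replicate 7, Cd177 (7, 0.094) and Psmb9 (7, 0.0802) without day 5 replicate 8, B2m (8, 0.0848), Clec4d (18, 0.056), Clec4e (17, 0.0582), Crlf2 (8, 0.0787), Fcgr3 (13, 0.0638), H2-DMa (7, 0.0738), Hemgn (8, 0.0775), Ifit2 (10, 0.0741) and Per1 (7, 0.0859) without day 5 replicate 10, Lyz2 (15, 0.0728) without day 9 replicate 3 and Acod1 (7, 0.0895), Cd5 (12, 0.0703), Itgax (8, 0.0948), Psat1 (4, 0.0804) and Thbs1 (8, 0.087) without day 9 replicate 5. Calls named with the GC trend removed were lost in the same way: Alpl (8, 0.0688) without day 5 replicate 2, Cdh5 (4, 0.114), Col5a2 (6, 0.0778), Eln (3, 0.0823), Sparc (4, 0.0883), Tek (19, 0.0517) and Thbs2 (18, 0.0527) without day 5 replicate 3, Tef (13, 0.0663) without day 5 replicate 7, Snora73b (10, 0.0607) and mt-Atp6 (4, 0.0799) without day 5 replicate 8, Cd74 (4, 0.0792) without day 5 replicate 10, Rpl18 (12, 0.0638) without day 9 replicate 1, Lyz2 (8, 0.0864) and mt-Co2 (11, 0.0666) without day 9 replicate 3, Dnajb1 (9, 0.0862) and Gp6 (17, 0.054) without day 9 replicate 4, Eomes (15, 0.0574), Hspa8 (5, 0.0829), Mki67 (17, 0.0567), Nfil3 (16, 0.0637), S100a8 (11, 0.0612) and Thbs1 (7, 0.0766) without day 9 replicate 5, Klre1 (18, 0.0519) without day 9 replicate 8 and Adgrg6 (16, 0.0595) without day 9 replicate 10.

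Same-numbered libraries of both days did not deviate together: their correlations ran from -0.0756 to 0.246, 3 of 10 were over 0.1, and 2 of 10 libraries correlated best with their own number. A block for replicate number gave 3463 and 36.6% called, or 995 and 15.2% with the GC trend removed, and 1370 genes for the steps and 1606 for the samplings.

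The sign of the log2 difference changed for some genes, none of which was then called. Snora73b (-0.0646), Ms4a2 (-0.362), Crlf2 (0.177), Bank1 (-0.0126), Cd28 (-0.0630), Klrd1 (-0.00296), Ifit2 (-0.0126), Psmb9 (0.122), Hba-a1 (0.00517), Hbb-bs (0.149), Rpl8 (0.000929), mt-Nd4 (-0.0226), Dsp (4.58) and Clock (-0.0969) did so with both shares as covariates. Snora73b (-0.0285), Ms4a2 (-0.353), Crlf2 (0.318), Bank1 (-0.0196), Cd28 (-0.0701), Ifit2 (-0.0250), Psmb9 (0.146), Hba-a1 (0.0423), Hbb-bs (0.153), Rps14 (0.0338), Rpl8 (0.0767), mt-Nd4 (-0.0175), Dsp (4.57), Clock (-0.108), Phgdh (0.0380) and Grb10 (0.00306) did so with the GC trend removed and both shares as covariates. Col1a1 (0.229), Il5ra (-0.0122), Ms4a2 (-0.248), Bank1 (-0.0869), Klrk1 (-0.0208), Col5a1 (0.380), Sparc (0.167), Dsp (2.20), Tnnt3 (0.132), Col5a2 (0.0519) and Col1a2 (0.324) did so with the GC trend removed and the collagen mean as a covariate. Ms4a2 (-0.0289), Cd5 (0.0439), Klrk1 (-0.0807) and Tnnt3 (0.124) did so with the GC trend removed. Ms4a2 (-0.0166), Cd5 (0.0501), Klrk1 (-0.101), Perp (-0.539), Tnnt3 (0.139) and Nsmaf (-0.00302) did so with the GC trend removed and the replicate block. Ms4a2 (-0.108), Crlf2 (0.0657), Cd28 (-0.106), Ifit2 (-0.0476), Psmb9 (0.104), Hba-a1 (0.412), Hbb-bs (0.527), mt-Nd4 (-0.200), Dsp (3.95), Tnnt3 (0.0567), Clock (-0.0766), Nsmaf (-0.0142) and Lcmt2 (0.183) did so with the GC trend removed and the globin share as a covariate. Ms4a2 (-0.0677), Cd5 (0.0564), Klrk1 (-0.112) and Tnnt3 (0.0944) did so with the GC trend removed without day 5 replicate 7 and day 9 replicate 2. Itgax (0.0624) and Perp (-0.0388) did so in limma on log2(TPM + 1). Itgax (0.0113), Perp (-0.250) and Alas2 (-0.00265) did so in limma on rescaled TPM. Hba-a1 (0.0833), Hbb-bs (0.419), Thbs1 (-0.0161), Dsp (3.82), Lcmt2 (0.0895), Lrrc40 (0.0710), Alas2 (-0.0372) and Eomes (-0.0190) did so with the globin share as a covariate. Col5a1 (0.0268), Dsp (2.07), Lrrc40 (0.0163) and Col1a2 (0.0167) did so with the collagen mean as a covariate. Perp (-0.558) did so with the replicate block. Perp (-0.563) and Tnnt3 (0.00726) did so with the mitochondrial rRNA share as a covariate. Perp (-0.567) did so in limma on log2 CPM. Lrrc40 (0.0237) and Alas2 (-0.0700) did so without day 9 replicates 4 and 9. Alas2 (-0.0123) did so at a mean CPM of at least 5. With each library left out in turn, as counted or with the GC trend removed, the signs differed for Ms4a2 from -0.0733 to 0.371, Cd5 from -0.278 to 0.113, Klrk1 from -0.175 to 0.406, Dsp from -1.59 to 0.877, Perp from -1.14 to 0.812, Tnnt3 from -0.0781 to 0.196, Nsmaf from -0.0168 to 0.104, Alas2 from -0.0430 to 0.223. In all of these the cause was not tested.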
